A study of Rattus norvegicus with 2 samples.

Results

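Dcn and Lum fibroblasts of the fetal rat colon were taken as the barcodes that carry transcripts of the decorin and lumican programme. Transcripts of muscle, epithelium and the fibroblast layer under the epithelium had to stay under the limits below, and many members hold some of them. A barcode was a member when it had UMIs (unique molecular identifiers, 1 per captured transcript) in at least 3 of Dpt, Dcn, Lum, Tcf21 and Col14a1 and at least 5 UMIs of Col1a1 and Col3a1 together. It also had to hold under 100 UMIs of Actg2, Tagln, Cnn1 and Myh11 per 10000, UMIs in fewer than 3 of F3, Foxl1, Bmp5, Bmp7, Frzb and Sox6, and UMIs in fewer than 4 of Epcam, Cldn7, Cldn4, Cldn3, Elf3, Vil1 and Lgals4. Barcodes were kept when they held 500 or more genes and no more than 20% mitochondrial UMIs, and 1311 of the 14115 kept were members. Because measured transcripts chose these cells, the levels of the genes just listed are given as a description only.

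The study profiled the colon of wild-type rat fetuses at E19.5, late in gestation, with droplet single-cell RNA-seq. One group came from control pregnancies and the other from pregnancies with maternal obesity, with 1 library in each group. Their titles read sample1 for control and sample2 for maternal obesity. The labels used here do not give the strain, the sex or number of the fetuses, the stretch of colon, or how obesity was brought about, although a label of the obesity sample reads HFD2. With 1 library per group no difference could be tested, so every difference is between these 2 libraries, and every interval is a 95% interval that covers counting error only.

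The control library held 103013814 UMIs in 8903 barcodes and the maternal obesity library 120811946 UMIs in 9714 barcodes. Fibroblasts were 255 of 6879 kept barcodes in control (3.71%, interval 3.27 to 4.18) and 1056 of 7236 in maternal obesity (14.6%, interval 13.8 to 15.4). They gave 2099464 and 10111878 UMIs, with a median of 6824 UMIs per fibroblast in control and 7872 in maternal obesity. Their haemoglobin UMIs were 2.84% and 3.48% of the total, their ribosomal protein UMIs 15.6% and 14.95%, and their mitochondrial UMIs 1.92% and 2.77%. The haemoglobin totals hide a wider gap in the typical cell. The median fibroblast held 1.20 UMIs of 7 erythroid markers per 10000 in control and 12.3 in maternal obesity. The libraries shared 130 barcodes, none of which was a member in both.

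Fibroblasts of the gut wall are the mesenchymal cells that secrete and organise the extracellular matrix. Decorin and lumican are small leucine-rich proteoglycans that bind collagen fibrils and set their spacing, dermatopontin (Dpt) binds decorin and collagen, and collagen XIV (Col14a1) sits on the fibril surface. Tcf21 is a transcription factor of visceral mesenchyme. During development these cells receive hedgehog signals from the epithelium and send Wnt, R-spondin, BMP and chemokine signals to their neighbours.

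The detection of these markers describes the choice of the cells and does not test their label. After each cell was thinned to 3000 UMIs (241 control and 1032 maternal obesity fibroblasts were deep enough), Dcn was seen in 86.7% of control fibroblasts (interval 81.8 to 90.7) and 88.6% of maternal obesity fibroblasts (86.5 to 90.4), and Lum in 79.7% and 84.1%. In epithelial barcodes thinned the same way, Dcn was seen in 0.0722% and 0.351%. These epithelial barcodes were deeper before thinning, with medians of 14517 and 21655 UMIs. Tcf21 was seen in 78.4% and 74.6% of fibroblasts, Dpt in 45.2% and 47.2%, and Col14a1 in 17.8% and 26.6%. Of the smooth muscle genes in the rule, Tagln was seen in 45.2% of control and 48.9% of maternal obesity fibroblasts and Actg2 in 22.8% and 22.1%, against 2.67% and 2.81% of epithelial barcodes for Tagln. The median fibroblast held 2.93 contractile UMIs per 10000 in control and 3.27 in maternal obesity, far below the limit of 100.

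The marker count is a graded quantity, and the 2 libraries filled its steps differently. In control, 125 members had 3 of the 5 markers (49.0%), 80 had 4 (31.4%) and 50 had 5 (19.6%). In maternal obesity, 399 had 3 (37.8%), 347 had 4 (32.9%) and 310 had 5 (29.4%). Just outside the rule, 109 control and 270 maternal obesity barcodes met all other limits with 2 markers. At the other limits, 17 control and 36 maternal obesity barcodes would have been members but for UMIs in 4 epithelial markers, while 39 and 110 members had 3 epithelial markers. A contractile sum of 50 to under 100 per 10000 was found in 4 and 26 members, and 3 and 21 barcodes missed membership with a sum of 100 to 200. A further 91 control and 74 maternal obesity barcodes missed it with a sum over 200.

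Collagen levels climbed with the marker count in both libraries. Levels are given as CPM, the UMIs of a gene per 1000000 UMIs summed over the named cells of a library. Col1a1, the main chain of type I collagen, stood at 3654, 4034 and 6529 CPM in control members with 3, 4 and 5 markers and at 3575, 5814 and 7858 CPM in maternal obesity. Col3a1 stood at 3034, 4437 and 6519.9 CPM in control and at 3495, 5339 and 7133 CPM in maternal obesity. Pdgfra, the receptor for platelet-derived growth factor that many fibroblasts carry, did not follow this order. It was 90.7, 78.4 and 106 CPM in control and 229, 145 and 145 CPM in maternal obesity. At each of the 3 steps Pdgfra was higher in the maternal obesity library.

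**Figure D1:**
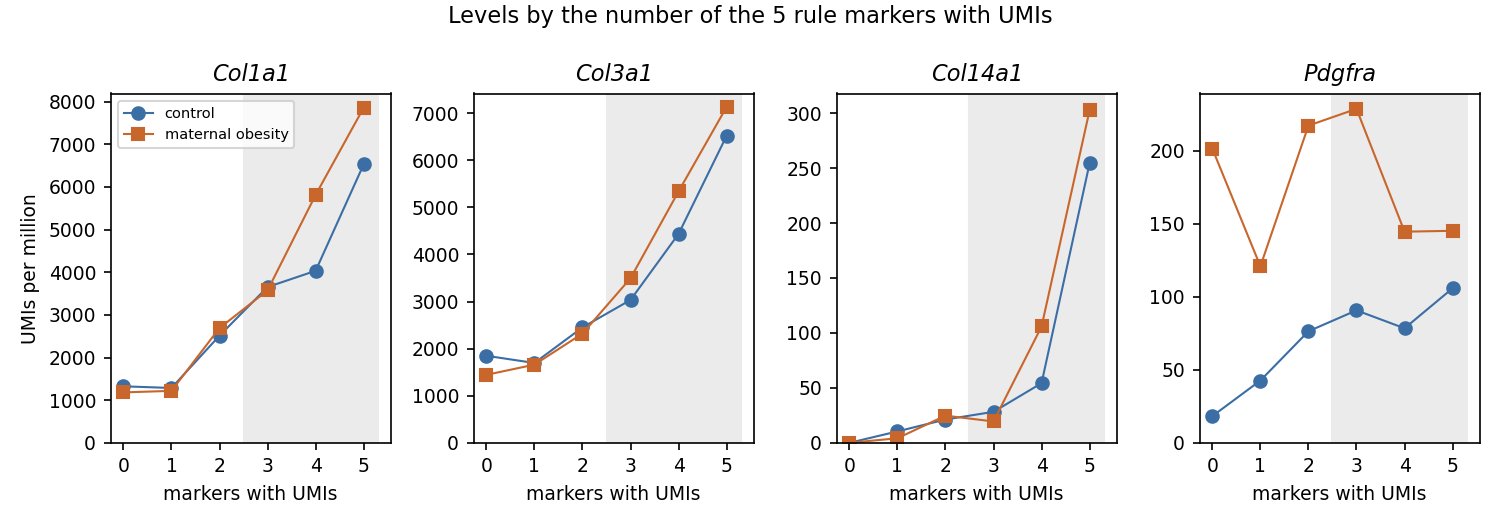
Levels in CPM (vertical axes, from 0) of 4 genes by the number of the 5 rule markers with UMIs (horizontal axis), in control (circles) and maternal obesity (squares). The grey area holds the members, and points outside it are barcodes that met every other limit. Col1a1 and Col3a1 climb from 3 to 5 markers in both libraries, while Pdgfra is higher in maternal obesity at each step.

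Set beside the mesenchymal cells most like them, the fibroblasts were marked by 15 genes, ranked by the smallest fold over 3 groups of cells in either library. These groups were subepithelial fibroblasts (5 control and 34 maternal obesity cells), smooth muscle cells (877 and 808) and interstitial cells of Cajal, the gut's pacemakers (34 and 98). With 5 control cells, the subepithelial values of that library rest on very few cells. The cells were chosen by their transcripts, so these folds describe the choice and support nothing. Dcn led with 1478 and 1840.4 CPM in control and maternal obesity fibroblasts, against 190.1 and 293 CPM in subepithelial fibroblasts and 42.1 and 61.8 CPM in smooth muscle. The smallest of these folds was 6.28 for Dcn and 2.41 for Lum, the last of the 15.

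Outside the rule, the 15 genes fell into a few kinds. Matrix genes were Mgp, an inhibitor of calcification, Eln, the elastin precursor, Thbs4, a thrombospondin of tendon-like matrix, and Fbln1, a fibulin of elastic fibres. Fbln1 stood at 781 and 868 CPM in fibroblasts, against 106 and 116 CPM in smooth muscle and 167 and 123 CPM in Cajal cells. Chemokines were Cxcl13 and Cxcl12, which attract B cells and blood-forming cells, and Cxcl10, an interferon-induced chemokine. Cxcl13 stood at 284 and 159.8 CPM in control and maternal obesity fibroblasts, against 2.77 and 3.40 CPM in smooth muscle. Dlk1 and Peg3, both imprinted genes, Zeb2, a mesenchymal repressor, and Vkorc1, the vitamin K reductase that Mgp depends on, made up the rest. Dlk1 also stood high in marker-low collagen cells, which met every limit but held 2 or fewer of the markers (557 control and 1075 maternal obesity cells, a group added after the data were seen). It measured 1930.0 and 1651 CPM in fibroblasts and 1408 and 1169 CPM there. Mgp was higher in the control library's marker-low cells (307 CPM) than in its fibroblasts (246 CPM). Cxcl12, Eln and Peg3 also had high levels in marker-low cells. The fold of fibroblasts over them was 1.41 and 1.82 for Cxcl12 in control and maternal obesity, 1.46 and 1.94 for Eln and 1.53 and 1.62 for Peg3.

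**Figure D2:**
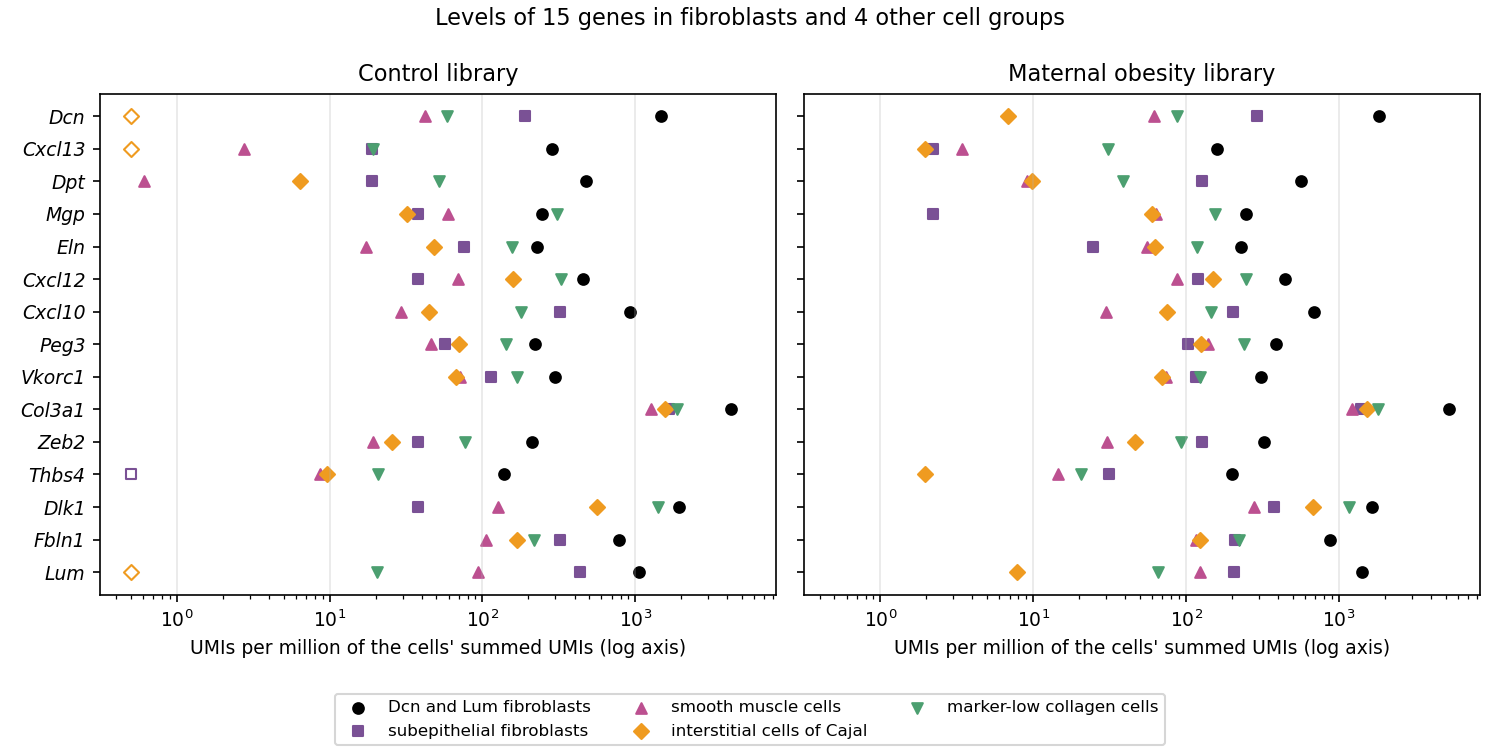
Levels in CPM (log axis) of 15 genes in fibroblasts (black circles), subepithelial fibroblasts (squares), smooth muscle cells (upward triangles), interstitial cells of Cajal (diamonds) and marker-low collagen cells (downward triangles), in each library. Open symbols at 0.5 stand for groups with no UMI. The fibroblasts sit to the right for each gene, with the exception of Mgp in the control library.

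Of 10183 genes with at least 50 UMIs over all fibroblasts, 1766 were at least 1.5-fold higher in maternal obesity (17.3%) and 474 at least 1.5-fold lower (4.65%). The interval excluded a ratio of 1 for 1285 and 385 of them. The median log2 ratio over the 10183 genes was 0.05. Calls depended on abundance. Of genes under 20 CPM, 28.9% were higher and 6.69% lower, of those between 20 and 100 CPM 10.8% and 3.54%, and of those with at least 100 CPM 4.36% and 2.27%. The minimum of 50 UMIs was summed over both libraries, and most UMIs came from maternal obesity, so a scarce gene passed mainly through the library where it was high. The shares describe this filter too, and counts for a gene group below are to be read against them.

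Of 20 measured collagens of the interstitial matrix, 10 were at least 1.5-fold higher in maternal obesity, none was lower and 10 were within 1.5-fold, with the rule gene Col14a1 among the 10 and a median log2 ratio of 0.51 beside 0.05 for all genes. Col6a1, which encodes a chain of the beaded filaments of collagen VI, stood at 531 and 1023 CPM in control and maternal obesity, a ratio of 1.93 (interval 1.81 to 2.05). Its partner chain Col6a2 stood at 1272 and 1440.2 CPM (ratio 1.13, 1.09 to 1.18), so the 2 chains differed by unequal amounts. Col5a2, a chain of the collagen V that starts fibrils, stood at 223 and 336 CPM, and Col16a1, a fibril-associated collagen, at 125 and 198 CPM. Among the scarcer chains, Col6a5 stood at 4.76 and 16.7 CPM (ratio 3.51, 1.86 to 7.45) and Col5a3 at 12.4 and 24.3 CPM. The main fibril chains Col1a1 (4382 and 5667 CPM, ratio 1.29) and Col3a1 (4214 and 5252 CPM, ratio 1.25) were within 1.5-fold. So was Col5a1 (992 and 1334 CPM). Col1a1 and Col3a1 are rule genes too, so the count and median of the 20 collagens include genes that chose the cells.

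The marker count moves with collagen levels, so the collagen ratio was also taken within each step of it. For Col6a1 it was 1.97 in members with 3 markers (interval 1.78 to 2.19), 1.69 in those with 4 (1.52 to 1.87) and 1.92 in those with 5 (1.70 to 2.17). The median log2 ratio of the 20 collagens was 0.22, 0.79 and 0.26 at these steps, so the size for the group differed among the steps. Outside the fibroblasts, Col6a1 was 1.90-fold higher in marker-low collagen cells (1.79 to 2.02) and 2.52-fold higher in smooth muscle cells (2.36 to 2.69).

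The elastic fibre genes and the matrix glycoproteins held the same kind of mixture of abundant genes near a ratio of 1 and less abundant genes above it. Their median log2 ratios depended on the marker count. At 3, 4 and 5 markers they were -0.03, 0.56 and 0.51 for elastic fibre genes and -0.16, 0.22 and 0.40 for glycoproteins. Of 16 elastic fibre genes, 5 were higher and none lower. Fbn2, a fibrillin of fetal tissue, stood at 82.9 and 141 CPM (ratio 1.70), Fbln5 at 45.7 and 84.8 CPM and Mfap5, a microfibril glycoprotein, at 17.1 and 45.5 CPM (ratio 2.65, 1.89 to 3.84). Mfap2, Fbln1 and Fbn1 were within 1.5-fold. Of 23 glycoproteins, 5 were higher and 1 lower. Fn1, the gene of fibronectin, stood at 454 and 776 CPM (ratio 1.71, 1.60 to 1.83), Tnc (tenascin C) at 35.2 and 57.4 CPM and Cthrc1 at 70.02 and 112 CPM. Sparc, an abundant collagen-binding glycoprotein, stood at 4238 and 4325 CPM. Ccn2, a growth factor-binding matrix protein, was the lower one, at 114 and 50.2 CPM (2.27-fold lower, 1.93 to 2.65). In the 6 clusters of fibroblasts described further on, the Ccn2 ratio ran from 0.230 to 2.71, so its direction was not shared among them. Without the 3 clusters of fewer than 50 cells, Ccn2 was within 1.5-fold (ratio 0.742, 0.610 to 0.908).

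Proteoglycans split. Gpc3 and Gpc6, cell-surface glypicans, and Sdc2, a syndecan, were higher, with Gpc3 at 98.1 and 163 CPM. Ogn (osteoglycin), Fmod (fibromodulin) and Sdc4 were lower. Ogn, a small proteoglycan related to lumican, stood at 33.8 and 14.4 CPM (2.34-fold lower, 1.74 to 3.13), and its ratio was under 1 in 6 of 6 clusters. Fmod rested on 30 and 55 UMIs, of which 1 maternal obesity cell held 29.1%. Without the clusters of fewer than 50 cells, Fmod was left with 2 and 10 UMIs and Sdc4 was at a ratio of 0.954. The other 11 of 17 measured proteoglycans, the rule's Dcn and Lum among them, were within 1.5-fold. Among 15 basement membrane genes, 2 were higher (Nid1 at 292 and 448 CPM, Col4a2 at 33.3 and 51.7 CPM) and 1 lower, Col18a1, with 25.9% of its maternal obesity UMIs in 1 cell and a ratio of 1.02 without the clusters of fewer than 50 cells.

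Enzymes that fold and crosslink collagen had a median log2 ratio of 0.00 over 24 genes, with 5 higher and 1 lower. The crosslinking oxidases Lox (74.8 and 134 CPM, ratio 1.79, 1.52 to 2.12) and Loxl1 (55.3 and 95.04 CPM) were higher, and so was the procollagen protease Adamts2. The abundant collagen chaperone Serpinh1 (2752 and 2170 CPM, ratio 0.788) and the prolyl hydroxylase subunit P4hb (1017 and 841 CPM) lay below 1 but within 1.5-fold. Crtap, a prolyl hydroxylase partner, stands in the files as Crtapl1, a name that RefSeq lists as its synonym. It was 1.81-fold lower (178 and 98.2 CPM). Of 27 matrix proteases and inhibitors, 4 were higher (Adamts1, Adamts4, Adamts12 and Reck) and none lower, while Mmp2 (473 and 545 CPM) and Timp1 (650.2 and 496 CPM) were within 1.5-fold.

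Of 16 integrins and matrix receptors, 8 were higher and 1 lower, with a median log2 ratio of 0.46. The integrin chains Itga8 (35.2 and 75.2 CPM, ratio 2.13, 1.68 to 2.75), Itga4, Itga6, Itga9, Itgav and Itgb3 were higher, with the collagen receptor Ddr2 (27.1 and 47.8 CPM) and the dystroglycan gene Dag1. The shared beta chain Itgb1 stood at 620.2 and 665 CPM, a ratio of 1.07. Itga3 was the lower one, on 15 and 36 UMIs with 30.6% of the latter in 1 cell. Without the clusters of fewer than 50 cells it had 1 and 5 UMIs, and Itga4 was at a ratio of 1.26.

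**Figure D3:**
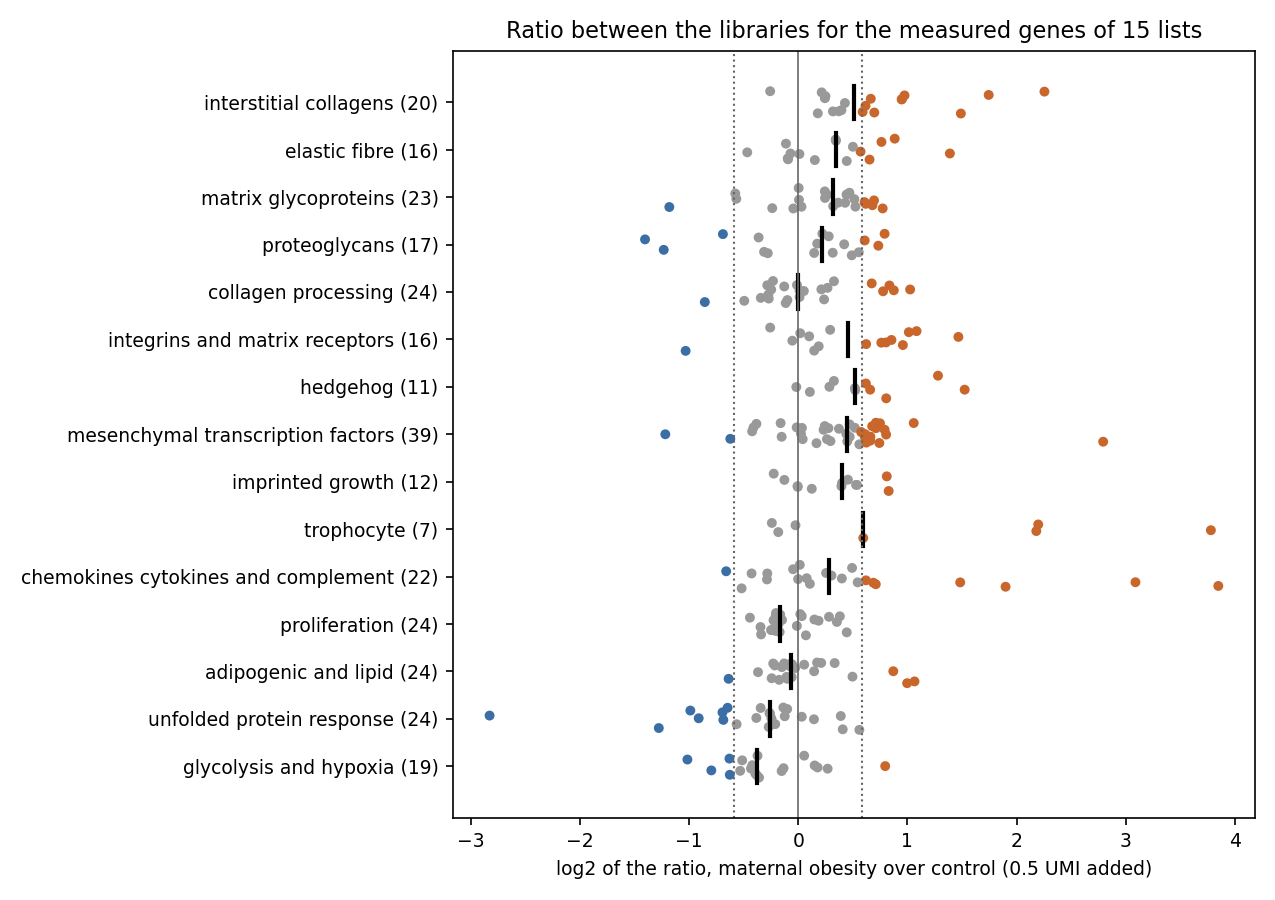
The log2 ratio of maternal obesity over control (horizontal axis, 0.5 UMI added to both sums) for each measured gene of 15 lists, with the number of measured genes in brackets. Orange points are at least 1.5-fold higher, blue points at least 1.5-fold lower, dotted lines mark 1.5-fold and black bars the list medians. Over all members, the medians run from 0.60 for the trophocyte list to -0.38 for glycolysis and hypoxia. The trophocyte median was -0.11 among members with 3 markers.

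Of 11 measured hedgehog pathway genes that a receiving cell carries, 5 were at least 1.5-fold higher in maternal obesity and 6 within 1.5-fold, with a median log2 ratio of 0.52. Gli1, a transcription factor and target of the pathway, had 10 control and 145 maternal obesity UMIs (4.76 and 14.3 CPM, ratio 3.01, 1.59 to 6.41). Hhip, a decoy receptor and target, stood at 27.6 and 48.7 CPM, the co-receptor Cdon at 10.0 and 24.8 CPM, Gli2 at 21.9 and 34.9 CPM and Smo at 17.6 and 27.4 CPM. The receptor and target Ptch1 (75.3 and 108 CPM, ratio 1.44, 1.22 to 1.71) and the target Foxf1 (307 and 440.4 CPM, ratio 1.43) stood just under 1.5-fold. The Hhip direction was not shared among clusters, with a ratio of 3.33 in cluster 4 (81.2 and 271 CPM) and 0.267 in cluster 1 (0.0849 to 0.911). In smooth muscle cells the Gli1 ratio was 0.908 (0.724 to 1.14). The whole list had a median log2 ratio of 0.42 in marker-low collagen cells, 0.36 in smooth muscle and 0.22 in epithelial barcodes.

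Wnt, BMP and growth factor genes were mixed. Of 21 Wnt and R-spondin genes, 6 were higher and 3 lower. Wnt5a, a ligand of the non-canonical branch, stood at 26.2 and 51.4 CPM (ratio 1.96, 1.48 to 2.64), and its ratio was above 1 in 6 of 6 clusters. Sfrp2, a secreted Wnt modulator, stood at 22.9 and 48.4 CPM, and the R-spondins Rspo3 and Rspo2, which amplify Wnt signals to stem cells, at 32.4 and 49.2 CPM and at 6.67 and 15.8 CPM. Wnt11 was 2.14-fold lower (20.5 and 9.59 CPM), but within 1.5-fold without the clusters of fewer than 50 cells (ratio 0.861). Of 29 BMP and TGF-beta genes, 8 were higher and 1 lower. The activin antagonist Fst stood at 16.2 and 58.5 CPM (ratio 3.62, 2.56 to 5.27) and the BMP antagonist Grem1 at 1.91 and 9.79 CPM, from 4 and 99 UMIs. Bmp4 itself (199 and 194 CPM) lay within 1.5-fold, and the pseudoreceptor Bambi was 1.55-fold lower. After thinning, a UMI of Fst was seen in 6.22% of control and 9.98% of maternal obesity fibroblasts, and in 0.144% and 0.0701% of epithelial barcodes.

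Of 26 growth factors and receptors, 8 were higher and 3 lower. Pdgfra stood at 90.02 and 174 CPM (ratio 1.94, 1.67 to 2.26), while Pdgfrb, the related receptor of perivascular cells, stood at 248 and 232 CPM. The lymphatic growth factor Vegfc stood at 13.3 and 30.9 CPM, and Vegfa, its relative for blood vessels, at 149 and 150.3 CPM. Kitlg, the ligand on which Kit-bearing pacemaker cells depend, was 1.74-fold lower (37.2 and 21.4 CPM, 1.32 to 2.26). In the insulin-like growth factor list 3 of 18 genes were higher and 1 lower. Igfbp4 (1221 and 1066 CPM), Igfbp5 (828 and 953 CPM) and Igf2 (426 and 585 CPM) were within 1.5-fold.

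Imprinted growth genes had a median log2 ratio of 0.40 over 12 genes, of which 2 were higher and none lower. Peg3 stood at 220.1 and 386 CPM (ratio 1.76, 1.59 to 1.94) and Grb10, an adaptor that restrains insulin signals, at 131 and 232 CPM (ratio 1.78, 1.57 to 2.02). Both ratios were above 1 in 6 of 6 clusters. Cdkn1c, a cell cycle inhibitor, stood at 1004 and 1449 CPM (ratio 1.44, 1.38 to 1.51), Nnat at 589 and 586 CPM and Dlk1 at 1930.0 and 1651 CPM. In smooth muscle cells the Peg3 ratio was 3.01 and the Grb10 ratio 2.54.

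Of 39 transcription factors of mesenchyme, 15 were higher and 2 lower, with a median log2 ratio of 0.45. Zeb2 stood at 210.1 and 322 CPM (ratio 1.53), Nfib at 88.6 and 135 CPM, Zfhx4 at 83.4 and 132 CPM, and Nfix at 8.57 and 18.3 CPM. Ebf2 had 2 control and 83 maternal obesity UMIs (ratio 8.62, 2.31 to 72.3). Twist1, a regulator of mesenchymal fate, was 2.32-fold lower (51.0 and 22.0 CPM, 1.83 to 2.94), with a ratio under 1 in 6 of 6 clusters. The rule gene Tcf21 stood at 949 and 849 CPM.

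Genes known from particular fibroblast types of the adult gut showed some of the widest gaps, on low counts. In the trophocyte list, after the fibroblasts near the crypt base that feed stem cells, 4 of 7 genes were higher and none lower. The list's median log2 ratio depended on the marker count. It was -0.11 in members with 3 markers, 1.94 in those with 4 and 1.71 in those with 5. Thbd (thrombomodulin) had 2 control and 165 maternal obesity UMIs (0.953 and 16.3 CPM), and C7, a complement component, had 9 and 207 (4.29 and 20.5 CPM, ratio 4.78, 2.47 to 10.6). Cd81, the most abundant of this list, stood at 1329.9 and 1125 CPM. In the adventitial list, after fibroblasts of vessel sheaths and outer layers, 4 of 12 were higher, 2 lower and 6 within 1.5-fold. Its median log2 ratio was 0.15 over all members and -0.24, 0.58 and 0.27 in members with 3, 4 and 5 markers. Clec3b (tetranectin), 1 of the 4 higher, stood at 24.8 and 95.4 CPM (ratio 3.85, 2.91 to 5.20). After thinning it was seen in 4.15% of control and 9.30% of maternal obesity fibroblasts and in 0 of the epithelial barcodes.

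Secreted immune genes were mixed. Of 22 chemokine, cytokine and complement genes, 7 were higher and 1 lower. Ccl2, which attracts monocytes, stood at 751 and 1229 CPM (ratio 1.64, 1.55 to 1.73). Its direction was not shared among clusters, with ratios from 0.656 in cluster 6 (0.552 to 0.782) to 3.14 in cluster 4. The eosinophil attractant Ccl11 (353 and 247 CPM) and Cxcl10 (925 and 688 CPM) were lower but within 1.5-fold. Il6st, the shared receptor chain of the interleukin 6 family, had 15 and 278 UMIs (7.14 and 27.5 CPM, ratio 3.85, 2.29 to 6.97), and its ratio was above 1 in 6 of 6 clusters. The Cxcl2 gap rested on 1 cell, which held 76.3% of the maternal obesity UMIs, and without the clusters of fewer than 50 cells Cxcl2 was left with 2 and 9 UMIs. Of 9 genes of the reticular and immune niche 1 was higher, Vcam1 (108 and 168 CPM), and 2 lower, Cxcl13 (1.78-fold, 1.62 to 1.96) and Il34. Cxcl13 was not lower throughout, with cluster ratios from 0.137 to 6.04. In the interferon list 3 of 14 genes were higher and none lower. Among them, Psmb8 of the immunoproteasome had 0 control and 70 maternal obesity UMIs, at least 4.84-fold higher against a floor of 3 UMIs in the control library. Without the clusters of fewer than 50 cells, 33 of these Psmb8 UMIs remained, at least 2.24-fold higher.

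Genes of the unfolded protein response and of the linked integrated stress response were the group with the most members lower. When secretory proteins misfold in the endoplasmic reticulum, the sensors Perk, Ire1 and Atf6 raise chaperones through Xbp1 and Atf6 and stress genes through the factor Atf4. Of 24 measured genes none was higher and 7 were lower, with a median log2 ratio of -0.26. Chac1, a glutathione-degrading enzyme and target of Atf4, had 251 UMIs over 255 control fibroblasts and 170 over 1056 from maternal obesity. That is 119.6 and 16.8 CPM, 7.11-fold lower (5.83 to 8.69). After thinning it was seen in 17.0% of control and 2.71% of maternal obesity fibroblasts, and in 14.7% and 7.57% of epithelial barcodes. Herpud1, which serves the degradation of misfolded proteins, stood at 388 and 159.9 CPM (2.42-fold lower, 2.23 to 2.64). The others were Sesn2, a stress-induced sestrin (95.3 and 48.1 CPM), Ddit3, the factor also called Chop (119.6 and 63.6 CPM), Atf4 (978 and 608 CPM, 1.61-fold lower), Creld2 (179.6 and 111 CPM) and Sdf2l1 (64.3 and 41.1 CPM).

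The abundant chaperones were within 1.5-fold. Hspa5, the central chaperone BiP, stood at 1689 and 1424 CPM (ratio 0.843, 0.813 to 0.875), Hsp90b1 at 1124 and 936 CPM, and the disulphide isomerases Pdia3 and Pdia6 at 920.2 and 837 CPM and at 878 and 734 CPM. In all, 17 genes of the list were within 1.5-fold, among them Asns, an Atf4 target that makes asparagine. Outside the list, the ranking of lower genes also held Mthfd2, a mitochondrial folate enzyme and Atf4 target (130.0 and 55.2 CPM, 2.36-fold lower, 2.03 to 2.73), and Ddit4, a stress-induced brake on mTOR (149.6 and 58.6 CPM, 2.55-fold lower, 2.22 to 2.93).

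**Figure D4:**
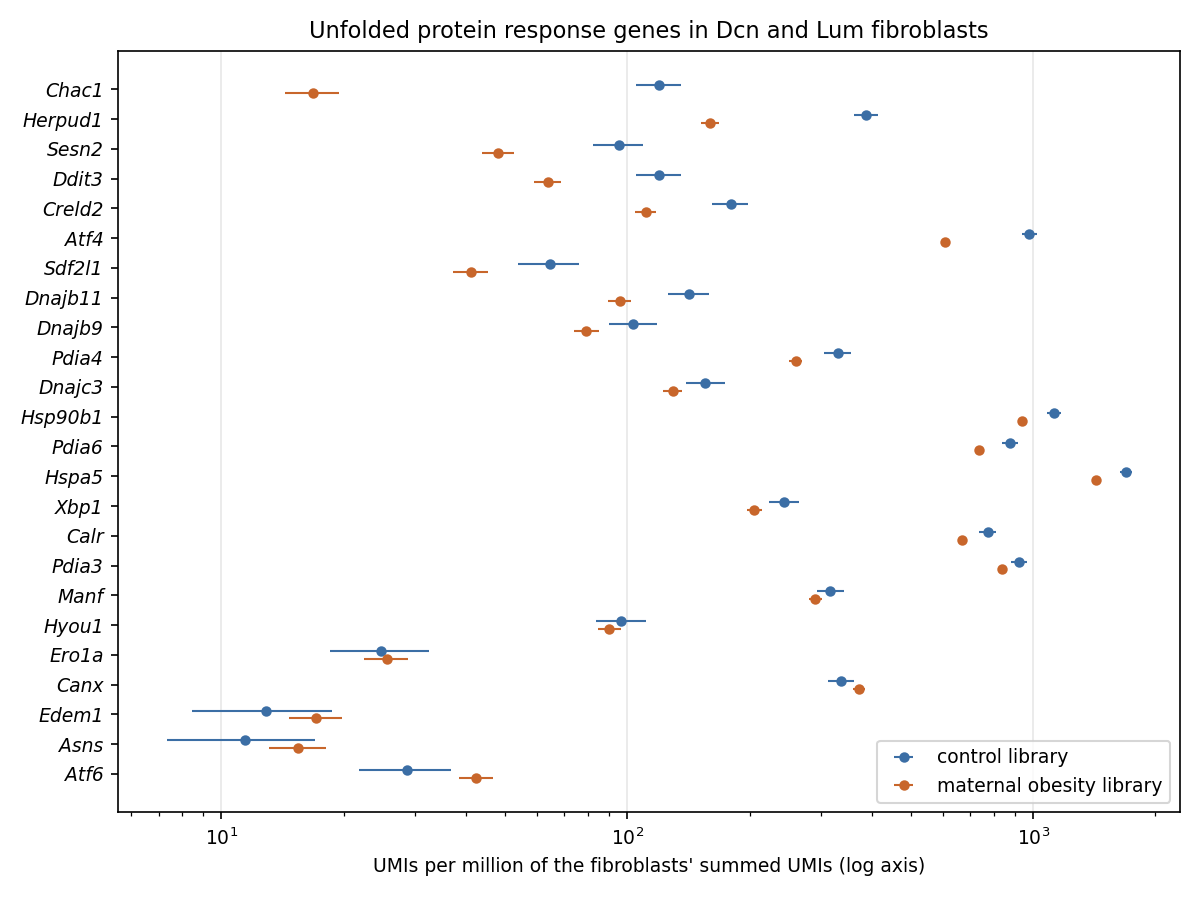
Levels in CPM (log axis, bars are 95% Poisson intervals) of the 24 measured unfolded protein response genes in control (blue) and maternal obesity (orange) fibroblasts, ordered by their ratio. Chac1 and Herpud1 stand farthest apart at the top, and Hspa5 and the other chaperones lie close together.

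The promoters of this list were searched for the letters that Atf4 and the endoplasmic reticulum stress factors are known to bind, as these are the 2 branches the list holds. RefSeq windows of the 250 bases before the start site (build GRCr8) were found for 20 of the 25 listed genes. The build of the deposited counts was named in no source used here, and only gene symbols link the windows to the counts. Searched on both strands, TGATGNAA (the core of the C/EBP-ATF element) was present in 1139 of 33469 windows (3.40%), and the endoplasmic reticulum stress element (CCAAT, then 9 bases, then CCACG) in 22 (0.0657%). Among the 7 lower genes 2 windows, those of Chac1 and Herpud1, held TGATGNAA, and none of the 12 genes within 1.5-fold that had a window did. The window of Mthfd2 held no match, and that of Trib3, a listed gene below the minimum of 50 UMIs, held 1 at -21. The stress element in the searched form was in the window of 1 lower gene, Creld2, and in those of 6 of the 12, namely Hspa5, Hsp90b1, Calr, Canx, Dnajc3 and Xbp1. Other spacings and orientations of its 2 parts were not searched. The Herpud1 window holds attgggccacg, where CCAAT on the opposite strand stands close before CCACG, so its lack of a match applies to the searched form only. A match describes letters in a window and is neither a site nor a cause. The windows of the 2 genes farthest apart and of Hspa5, for comparison, are shown 5′ to 3′ on the gene's strand, with the searched letters in capitals.
Chac1 (chr3:126795881-126796130, plus strand): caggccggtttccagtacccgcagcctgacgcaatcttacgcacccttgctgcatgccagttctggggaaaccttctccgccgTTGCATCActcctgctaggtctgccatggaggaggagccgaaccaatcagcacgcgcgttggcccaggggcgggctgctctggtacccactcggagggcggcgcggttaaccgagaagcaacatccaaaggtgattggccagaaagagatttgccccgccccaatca
Herpud1 (chr19:10614708-10614957, minus strand): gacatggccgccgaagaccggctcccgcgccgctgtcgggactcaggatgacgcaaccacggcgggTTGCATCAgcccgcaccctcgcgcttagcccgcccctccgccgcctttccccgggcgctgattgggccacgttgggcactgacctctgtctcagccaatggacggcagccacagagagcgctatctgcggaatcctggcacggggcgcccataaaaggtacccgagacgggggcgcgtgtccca
Hspa5 (chr3:38452766-38453015, plus strand): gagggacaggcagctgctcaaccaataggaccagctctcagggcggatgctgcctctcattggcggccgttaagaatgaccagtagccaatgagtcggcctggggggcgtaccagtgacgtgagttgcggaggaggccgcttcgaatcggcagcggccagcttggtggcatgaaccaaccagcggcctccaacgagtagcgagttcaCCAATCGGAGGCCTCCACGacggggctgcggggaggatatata
In Chac1 and Herpud1 the capitals are TTGCATCA, the same 8 letters in both, which read as TGATGNAA on the opposite strand. They begin at -167 and -184 from the start site. In Hspa5 the 19 letters lie on the gene's own strand and begin at -43.

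The Chac1 gap was present at each marker step, with ratios of 0.136, 0.139 and 0.155 in members with 3, 4 and 5 markers. In the 6 clusters compared between libraries, Chac1 ran from 317 and 20.6 CPM in cluster 1 (ratio 0.0649, 0.0416 to 0.0990) to 4.69 and 7.57 CPM in cluster 3, where the control library had 1 UMI. Herpud1 was lower in all 6, with ratios from 0.244 to 0.856. Atf4 was lower in all 6 too, from 0.521 to 0.835. Beside the fibroblast ratio of 0.141 (0.115 to 0.172), the Chac1 ratio was 0.694 in smooth muscle (0.627 to 0.768) and 0.494 in epithelial barcodes (0.466 to 0.523). Herpud1 stood at 0.595 in smooth muscle and 0.585 in epithelial barcodes, against 0.412 in fibroblasts. In marker-low collagen cells the Chac1 ratio was 0.201 (0.160 to 0.252). Chac1 and Herpud1 were ranked by their ratios in fibroblasts. The whole unfolded protein response list had a median log2 ratio of -0.262 in fibroblasts and -0.264 in marker-low collagen cells. It was -0.253 in smooth muscle and -0.378 in epithelial barcodes. Whether these ratios differ between cell types was not tested.

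**Figure D5:**
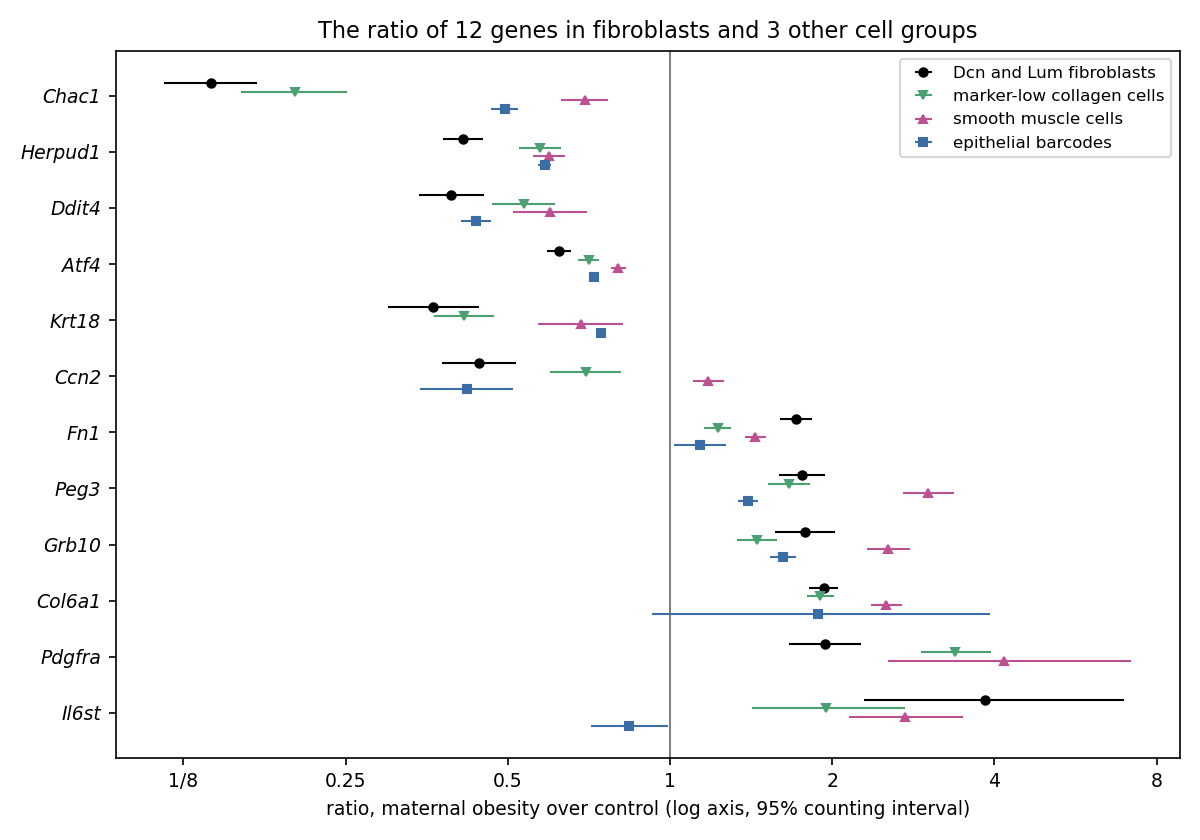
The ratio of maternal obesity over control (log axis, bars are 95% counting intervals) of 12 genes in fibroblasts (circles), marker-low collagen cells (downward triangles), smooth muscle cells (upward triangles) and epithelial barcodes (squares). Groups with fewer than 10 UMIs of a gene in either library are not drawn. Chac1, Herpud1, Ddit4 and Atf4 are under 1 in all 4 groups, and Chac1 is at 0.141 in fibroblasts and 0.694 in smooth muscle.

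Glycolytic and hypoxia genes had the lowest median of all lists, a log2 ratio of -0.38 over 19 genes with 4 lower and 1 higher. Pgam1, a glycolytic mutase, stood at 623 and 403 CPM (1.55-fold lower, 1.45 to 1.65), Gpi at 259 and 168 CPM, and Bnip3, a mitophagy receptor induced by low oxygen, at 155 and 89.2 CPM (1.74-fold lower). Ldha (1078 and 841 CPM) and Aldoa (1074 and 743 CPM) were lower but within 1.5-fold. Hk1 was the higher one, at 9.53 and 16.9 CPM.

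The remaining lists were counted in the same way. Of 24 proliferation genes none was 1.5-fold different, with Top2a at 252 and 307 CPM and Stmn1 at 1177 and 926 CPM. Of 24 adipogenic and lipid genes 3 were higher and 1 lower, with a median log2 ratio of -0.07. Cebpb (698 and 638 CPM), Cebpd (549 and 607 CPM) and Apoe (302 and 272 CPM) were within 1.5-fold, and Srebf1, the regulator of fatty acid synthesis, was 1.54-fold lower (20.01 and 12.96 CPM). Retinoic acid genes had 4 of 16 higher and 1 lower. Crabp2 stood at 51.4 and 78.3 CPM and Crabp1, a second retinoid carrier, was 1.74-fold lower (47.6 and 27.4 CPM). Cluster ratios of Crabp1 ran from 0.0372 to 1.46, so it was not lower throughout. Glucocorticoid response genes had 3 of 11 higher, among them Fkbp5 (12.4 and 23.3 CPM) and Per1 (22.9 and 45.8 CPM), and 2 lower, Ddit4 and Errfi1. Of 23 axon guidance and nerve factor genes 6 were higher and none lower, with Ncam1 at 60.0 and 108 CPM and Epha3 at 17.6 and 44.8 CPM.

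Contractile genes outside the rule were near a ratio of 1, with 3 of 14 higher and none lower. Acta2 stood at 874 and 918 CPM and Tpm1 at 1539 and 1208 CPM. Of 22 immediate early and dissociation genes, which can be induced while tissue is digested, 3 were higher and 2 lower. Fos (2927 and 3190 CPM, ratio 1.09), Zfp36 (3663 and 3786 CPM) and Egr1 (2310.1 and 3010 CPM) were among the 20 genes with the highest UMI levels in both libraries together, with Actb, Col1a1, Col3a1, Sparc, Vim and Serpinh1. Atf3 was 1.82-fold lower (314 and 172 CPM), with a ratio of 0.714 without the clusters of fewer than 50 cells, and Myc 1.63-fold lower. The sex-linked genes Eif2s3y (102 and 84.9 CPM) and Kdm5d (19.1 and 20.6 CPM) had UMIs in both libraries and were within 1.5-fold.

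Of the 15 genes ranked highest in maternal obesity, several belong to other cell types. Tyrobp, Laptm5, Coro1a, Fcer1g and Rac2 are genes of immune cells, and Stmn2 is a neuronal gene. Tyrobp had 0 control and 307 maternal obesity UMIs, at least 21.2-fold higher against the floor of 3 UMIs, in 3.31% of the maternal obesity fibroblasts. The 8 myeloid markers summed to 4.29 and 57.2 CPM in the control and maternal obesity fibroblasts, with C1qb, C1qc, Tyrobp, Csf1r and Ptprc at 0 in control, and 13 maternal obesity members had UMIs in 3 or more of them. Of the 307 Tyrobp UMIs, 283 lay in cluster 7, 1 of the 3 clusters of fewer than 50 cells described further on. Without these clusters Tyrobp had 24 UMIs, at least 1.63-fold higher. Laptm5 was left with 0 and 2 UMIs, Coro1a with 1 and 8 and Fcer1g with 2 and 10, log2 ratios of 0.02, 0.21 and -0.23 with 0.5 UMI added to both sums. Rac2 was on the lower side (-1.47) and Stmn2 at a ratio of 1.31 (0.691 to 2.75). Without members that had 3 markers of another list, Stmn2 was at -0.62. Mmp10, a matrix protease, had 5 and 236 UMIs and turned to -1.27 among members with at least 4 markers. The other genes ranked (Thbd, Clec3b, Tnfaip6, Fst, C7, Setbp1, Il6st and Fndc3b) were higher in each alternative tried. Tnfaip6, a hyaluronan-binding protein, had 9 and 232 UMIs, Setbp1 8 and 186 and Fndc3b 23 and 376.

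Among the 15 ranked lowest, several are epithelial genes. Krt19 (137 and 34.8 CPM), Krt8 (178 and 57.5 CPM) and Krt18 (80.5 and 29.3 CPM) are keratins, and Agr2, Fam3d, Lypd8 and F11r are genes of the gut lining. The 7 epithelial markers summed to 268 CPM in control fibroblasts and 175 CPM in maternal obesity fibroblasts, and the control library held 3267 epithelial barcodes against 1600 in maternal obesity. The 6 mesothelial markers, which include Krt19, summed to 208 and 67.6 CPM. The part of RNA from other cells in these keratin differences was not tested. Over all members the ratios were 0.255 for Krt19, 0.323 for Krt8 and 0.364 for Krt18. Without the clusters of fewer than 50 cells they were nearer 1, at 0.298, 0.463 and 0.529. Cluster 7, described further on, had 444 CPM of Krt19 against 35.8 CPM in the other members. Krt19 was lower in 6 of 6 clusters. The remaining lower genes were Chac1, Herpud1, Ddit4, Mthfd2, Tiparp (252 and 109 CPM), a target of the aryl hydrocarbon receptor, Efna1, Mlf1 and the small nuclear RNA 7SK (149.6 and 49.9 CPM).

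Markers of the remaining cell types were also summed. The neuronal markers summed to 106 and 110.2 CPM, the glial ones to 23.3 and 12.5 CPM with Cdh19 at 0 in both, the endothelial ones to 26.2 and 19.2 CPM with Emcn at 0 in control, and the pericyte ones to 141 and 184 CPM with Higd1b at 0 in both. Lymphoid markers were at 0 in control and 6.72 CPM in maternal obesity. The erythroid sum was 20927 and 24467 CPM, nearly all of it Hba-a1 and Hbb. Much of it lay in the 28 cells of cluster 9, described further on, which held 119637 Hba-a1 UMIs. Per cell, the median erythroid sum was 1.20 UMIs per 10000 in control and 12.3 in maternal obesity.

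The fibroblasts were not uniform. Clustered on their own, the 1311 cells of both libraries fell into 10 clusters of 16 to 299 cells, which are described by their leading genes and not compared in size between libraries. Cluster 1 (299 cells) was led by Sema3e, Grem1, Fgf10 and Ccn3, and had 3382 CPM of Dcn and 2671 CPM of Lum. Cluster 6 (174 cells) was led by Mfap5, Clec3b, Ebf2, Col6a6 and Cd34, the first pair of which the adventitial list holds, and had 10748 CPM of Col1a1. Cluster 4 (227 cells) was led by Ereg, Nrg1, Areg, Ptgs2 and Hhip, which include epidermal growth factor family ligands, and had 335 CPM of Pdgfra. Cluster 0 (150 cells) was led by Scx and Mkx, transcription factors of tendon, with Aldh1a1 and Lrat of retinoid metabolism, and had 1260 CPM of Dpt.

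Cluster 5 (212 cells) was led by genes of cell division, cluster 3 (103 cells) by Nts, Apoe and Sfrp2 with 611 CPM of Top2a, and cluster 8 (73 cells) by Moxd1 and Ccl11 among others. The 3 smallest clusters were led by genes of other cell types: cluster 2 (16 cells) by neuronal genes such as Stmn2 and Tubb3, cluster 7 (29 cells) by S100a8, S100a9 and the mesothelial Msln, and cluster 9 (28 cells) by erythroid genes, with 190063 CPM of Hba-a1. Together they held 73 cells, 5.57% of the members. A doublet caller (Scrublet) marked 0 of the 255 control and 19 of the 1056 maternal obesity fibroblasts. Of all kept barcodes it marked 0.872% in control and 1.85% in maternal obesity, where the set rates were 7.12% and 7.77%. At least 3 markers of another listed type were held by 25 control (9.80%) and 143 maternal obesity members (13.5%). Epithelial, smooth muscle and erythroid markers were left out of this count.

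Within the 6 clusters that held at least 20 cells of each library, some differences between the libraries were shared and others were not. Col6a1 was higher in 6 of 6, with ratios from 1.52 in cluster 6 to 2.16 in cluster 4, and so was Col5a2. Fn1 was not higher in all of them, with ratios from 1.00 in cluster 4 (0.825 to 1.22) to 2.60 in cluster 3. Clec3b and Mfap5 were concentrated in cluster 6, where Clec3b stood at 151 and 406 CPM (ratio 2.70, 2.01 to 3.70) and Mfap5 at 96.2 and 218 CPM (ratio 2.27, 1.56 to 3.41). Pdgfra was higher in 5 of 6, from 0.898 in cluster 3 to 2.85 in cluster 4.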

How the data were processed

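Single-cell RNA-seq of 2 fetal rat colon libraries was deposited by the authors as raw UMI counts per gene and barcode, with no normalisation. Tissue was digested with enzymes and red cells were lysed, per the labels' protocols. Cell Ranger 2.1.1 is named in the submitters' processing notes and cellranger 6.1.2 per the file headers; which made the counts is not settled, and aligner settings and genome build are not given in the sources used here. Counts of identifiers that share a symbol were added (30400 identifiers, 28116 symbols). Of 784 symbols in the lists, RefSeq synonyms matched 4, while 30, Gpr20 included, are not analysed here, so Cajal cells needed UMIs in all 3 of Kit, Ano1 and Etv1. The lists, members and tests were chosen with earlier results of these data known.

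UMIs were summed over the fibroblasts of each library (CPM of the summed total). Genes with at least 50 UMIs were measured. With 1 library per group no test, p-value or standard error was possible. Ratios carry exact conditional binomial, shares Clopper-Pearson and counts Poisson 95% intervals, which cover counting error only. List medians use log2 ratios with 0.5 UMI added, and a count of 0 was set to a floor of 3 UMIs per library for a bound. The ranked genes were the 15 higher and 15 lower with the interval bound nearest 1 lying farthest from 1, among genes with at least 100 UMIs and no more than 20% of the higher library's UMIs in 1 cell (72 genes were left out for this). The ranking left out genes that are mitochondrial, sex-linked, haemoglobin or ribosomal protein genes, or that lack a symbol. From each list the 4 most abundant genes and those past 1.5-fold with an interval excluding 1 could be named, with the 20 most abundant genes of all and the 15 with the highest smallest fold over the 3 groups of alike cells; cluster and neighbouring genes named beside them were chosen after their values were seen. Some marker genes and leading genes of clusters are not reported here. Cells were thinned to 3000 UMIs with a fixed seed for shares of cells. Clusters were Leiden clusters (scanpy 1.11.5) on 2000 variable genes, 20 components and 15 neighbours at resolution 0.5. No doublet caller was applied in the main counts. The ratio intervals were run before use on simulated Poisson sums, the model they assume. That run checks the calculation only, since it leaves out the clumping of UMIs within cells. Alternatives covered the barcode limits, the marker count, thinning, doublets, cells with other types' markers, the scaling and the UMI minimum; 2 more, without clusters of fewer than 50 cells and with all 5 markers, were chosen after seeing the data.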

Additional observations from a re-analysis of the deposited data

How the results depend on the processing

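The difference in the share of fibroblasts kept its direction in each alternative. The control share was 5.29% with at least 2 markers, 1.89% with at least 4 and 0.727% with all 5, and the maternal obesity share 18.3%, 9.08% and 4.28%. The maternal obesity share was also 16.7% with a minimum of 1000 genes, 12.8% after thinning, 12.6% without members holding 3 markers of another list and 13.8% without clusters of fewer than 50 cells. With a minimum of 200 UMIs, 757 genes were at least 1.5-fold higher and 190 lower, as fewer genes were measured (6708), and with a minimum of 20 UMIs 757 were lower. Centred on the median gene, 1545 were higher and 597 lower, and over cells' mean shares 1972 and 533. Of the 30 ranked genes, 24 kept their direction in every alternative that gave a value for them. Mmp10, with 5 control UMIs over all members, was at -1.27 with at least 4 markers and -1.24 with all 5 (log2 ratios). Without clusters of fewer than 50 cells Fcer1g was at -0.23 and Rac2 at -1.47. Stmn2 was at -0.62 without members holding 3 markers of another list. With all 5 markers Efna1 was at 0.14 and Mlf1 at 0.0728. The cause of these was not tested. Of 29 list medians, 22 kept their sign, those of the collagens, hedgehog and unfolded protein response lists among them. No paired analysis was possible because each group holds 1 library. Depth limits the control side most: 1 UMI there is 0.476 CPM, against 0.0989 CPM in maternal obesity, and leaving out a replicate was not possible.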
